A study of Mus musculus with 32 samples.

Results

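The 10 genes described here carry glucose into the cell and through glycolysis to lactate: the glucose transporters Slc2a1 and Slc2a3, the hexokinases Hk1 and Hk2, the phosphofructokinases Pfkl and Pfkp, the phosphoglycerate kinase Pgk1, the lactate dehydrogenase subunit Ldha, and the monocarboxylate transporters Slc16a1 and Slc16a3. They were chosen by symbol, and each had 1 row in all 4 deposited count tables, which share 21509 symbols. The tables give a read count for each gene in each of 32 libraries of mouse RNA, which form 10 groups with 3 or 4 replicates and were made to ask what PRDM16 and its isoforms do in blood stem cells and in leukaemia. PRDM16 is a zinc-finger transcriptional regulator made as a full-length form (f-PRDM16) and a short form (s-PRDM16).

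The leukaemia groups were MLL-AF9 cells, a mouse myeloid leukaemia driven by the MLL-AF9 fusion, sorted from moribund mice with no culture: PRDM16-KO cells overexpressing s-PRDM16 (KO+s), PRDM16-KO cells overexpressing f-PRDM16 (KO+f), PRDM16-KO cells with EV (KO+EV) and wild-type cells with EV (WT+EV), 3 libraries each. EV is not spelled out in the labels and is read here as empty vector. The other groups were haematopoietic stem cells (HSCs) sorted as Lin-cKit+Sca1+CD48-: PRDM16-KO and wild-type adult bone marrow (4 libraries each), PRDM16-KO and wild-type fetal liver (3 each, called the total knockout here), and fetal liver that keeps s-PRDM16 only, with its own wild types (3 each, the f-PRDM16 knockout). The labels give no ages and no pooling of animals, and do not spell out a driver of the deletions. Descriptions of the bone marrow and total-knockout libraries begin with VAV, a tag that is not explained. Those of the f-PRDM16 knockout and its wild types begin instead with a length in bp, also unexplained, which their titles carry as the genotype. The f-PRDM16 knockout is thus labelled as a different allele from the VAV libraries. The labels do not describe either allele or say whether the mouse lines are related. Nor do the labels say whether leukaemia replicates came from separate transductions, so p-values measure the spread between these libraries.

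Glucose enters cells through the SLC2A transporters, is trapped by hexokinase as glucose 6-phosphate, and is committed to glycolysis by phosphofructokinase. Phosphoglycerate kinase makes ATP, lactate dehydrogenase turns pyruvate into lactate, and the SLC16A transporters move lactate with a proton across the plasma membrane. Many of these genes are known targets of the hypoxia-inducible factor HIF-1, and adult HSCs are known for a high use of glycolysis.

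The promoters of the 5 genes that passed as lower than in KO+EV in at least 1 of the PRDM16 add-back groups (Hk2, Pfkp, Ldha, Slc16a1 and Slc16a3) are shown; Pfkp and Slc16a3 passed in both groups, Hk2 in KO+f, and Ldha and Slc16a1 in KO+s. RefSeq (GRCm38.p6) gave windows of 250 bases before the start for 9 of the 10 genes, all but Slc2a3. The windows printed are Hk2 at chr6:82774455-82774704 (minus strand), Pfkp at chr13:6648772-6649021 (minus strand), Ldha at chr7:46845554-46845803 (plus strand), Slc16a1 at chr3:104638414-104638663 (plus strand) and Slc16a3 at chr11:120948817-120949066 (plus strand), 5′ to 3′ on the gene's strand, with capitals for ACGTG or GCGTG, the core of the hypoxia response element, on either strand (read as CACGT or CACGC on the other one).
Hk2: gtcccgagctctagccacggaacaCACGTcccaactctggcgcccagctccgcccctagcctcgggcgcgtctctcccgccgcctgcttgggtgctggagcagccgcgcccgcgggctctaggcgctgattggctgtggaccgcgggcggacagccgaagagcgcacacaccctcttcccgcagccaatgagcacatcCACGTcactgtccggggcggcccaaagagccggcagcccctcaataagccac
Pfkp: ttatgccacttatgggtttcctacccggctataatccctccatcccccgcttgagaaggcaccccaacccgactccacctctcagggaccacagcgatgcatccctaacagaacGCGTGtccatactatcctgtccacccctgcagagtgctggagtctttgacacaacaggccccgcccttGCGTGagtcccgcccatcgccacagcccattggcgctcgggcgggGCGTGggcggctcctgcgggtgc
Ldha: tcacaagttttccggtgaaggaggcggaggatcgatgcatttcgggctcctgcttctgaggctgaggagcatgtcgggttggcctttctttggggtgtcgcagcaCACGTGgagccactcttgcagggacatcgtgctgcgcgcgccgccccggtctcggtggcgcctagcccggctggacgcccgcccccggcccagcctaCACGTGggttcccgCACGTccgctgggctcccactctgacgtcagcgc
Slc16a1: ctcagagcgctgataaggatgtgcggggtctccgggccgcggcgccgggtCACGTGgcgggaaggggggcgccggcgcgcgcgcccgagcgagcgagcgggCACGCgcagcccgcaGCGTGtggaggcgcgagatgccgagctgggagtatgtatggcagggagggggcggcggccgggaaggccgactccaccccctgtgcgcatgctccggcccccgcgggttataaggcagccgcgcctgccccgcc
Slc16a3: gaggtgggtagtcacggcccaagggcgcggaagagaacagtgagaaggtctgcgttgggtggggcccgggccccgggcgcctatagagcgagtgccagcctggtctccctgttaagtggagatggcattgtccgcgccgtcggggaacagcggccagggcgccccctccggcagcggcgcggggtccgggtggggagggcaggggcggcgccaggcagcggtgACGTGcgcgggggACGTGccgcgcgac
Of 11 windows of the 9 genes, 10 held ACGTG or GCGTG, against 38.6% of 32851 promoter windows of that length. ACGTG alone was in 6 of the 11 windows, against 16.6% of all windows. The longer E-box CACGTG, which contains ACGTG, was in the Ldha window printed and in the Slc16a1 window, against 6.02% of all windows. The windows of Slc2a1 and Pgk1, which were not among the genes that fell, held the core too, and 1 of the 2 Hk1 windows held neither form. A match is a run of letters and not a bound site.

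Facts of the libraries bear on what follows. Leukaemia libraries held 16353584 to 23785307 counts and HSC libraries 22490805 to 44952448. Prdm16 averaged 235 ± 58.0 CPM (counts scaled to a library total of 1000000) in KO+s, 273 ± 53.5 in KO+f, 0.0480 ± 0.0476 in KO+EV and 0.733 ± 0.305 in WT+EV (SD, n = 3 each). In bone marrow it was 30.1 ± 13.5 CPM in libraries labelled KO and 31.0 ± 18.7 CPM in WT (SD, n = 4 each), so Prdm16 RNA does not bear out that label. In fetal liver it was 19.8 ± 7.78 CPM in the total knockout, against 34.5 ± 7.80 in its wild types, and 7.82 ± 1.81 CPM in the f-PRDM16 knockout, against 23.0 ± 10.9 in its wild types (SD, n = 3 each). The HSC marker Hlf was present in every HSC library, where its lowest value was 57.5 CPM. The HSC marker list (10 genes) summed to 3018 to 4751 CPM in bone marrow and 1631 to 2111 CPM in the total knockout and its wild types. The list holds Cd48, although the cells were sorted as CD48-, so a higher sum need not mean purer HSCs. In the f-PRDM16 knockout it was 1394 to 2194 CPM in KO and 2207 to 3104 CPM in WT. Granulocyte markers there summed to 6984 to 44344 CPM in KO and 3229 to 19893 CPM in WT, so Hlf alone does not show how pure a library was. Replicate 3 of KO+EV stands apart, with summed granulocyte markers of 44477 CPM, against 8458 CPM in replicate 1 and 7995 CPM in replicate 2. The total-knockout table has another make-up: genes named Gm and a number made up 9.25 to 10.3% of the counts there, against at most 0.378% elsewhere.

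Across the 10 groups, the 10 genes together took the most counts in fetal liver HSCs and the fewest in leukaemia cells. The total-knockout table and bone marrow overlapped. Their summed level was 1178 to 1331 CPM in KO+s, 1140 to 1221 CPM in KO+f, 1454 to 1684 CPM in KO+EV and 1433 to 1444 CPM in WT+EV. It was 2904 to 3305 CPM in libraries labelled KO and 2582 to 3558 CPM in WT of bone marrow, 2879 to 6190 CPM in KO and 2679 to 5687 CPM in WT of the total knockout, and 4565 to 7836 CPM in KO and 4368 to 7432 CPM in WT of the f-PRDM16 knockout. A list of 20 other glycolytic enzymes was not lowest in leukaemia. It summed to 5395 to 6188 CPM in KO+s and 4817 to 5358 CPM in KO+f. The sums were 5362 to 5856 CPM in KO+EV and 4590 to 5415 CPM in WT+EV. Bone marrow had 3651 to 3928 CPM in libraries labelled KO and 3076 to 4846 CPM in WT. Leukaemia libraries were made without the SMARTer amplification that HSC libraries had, and the tables may differ in annotation, so levels across tables are given side by side with no test.

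**Figure D1:**
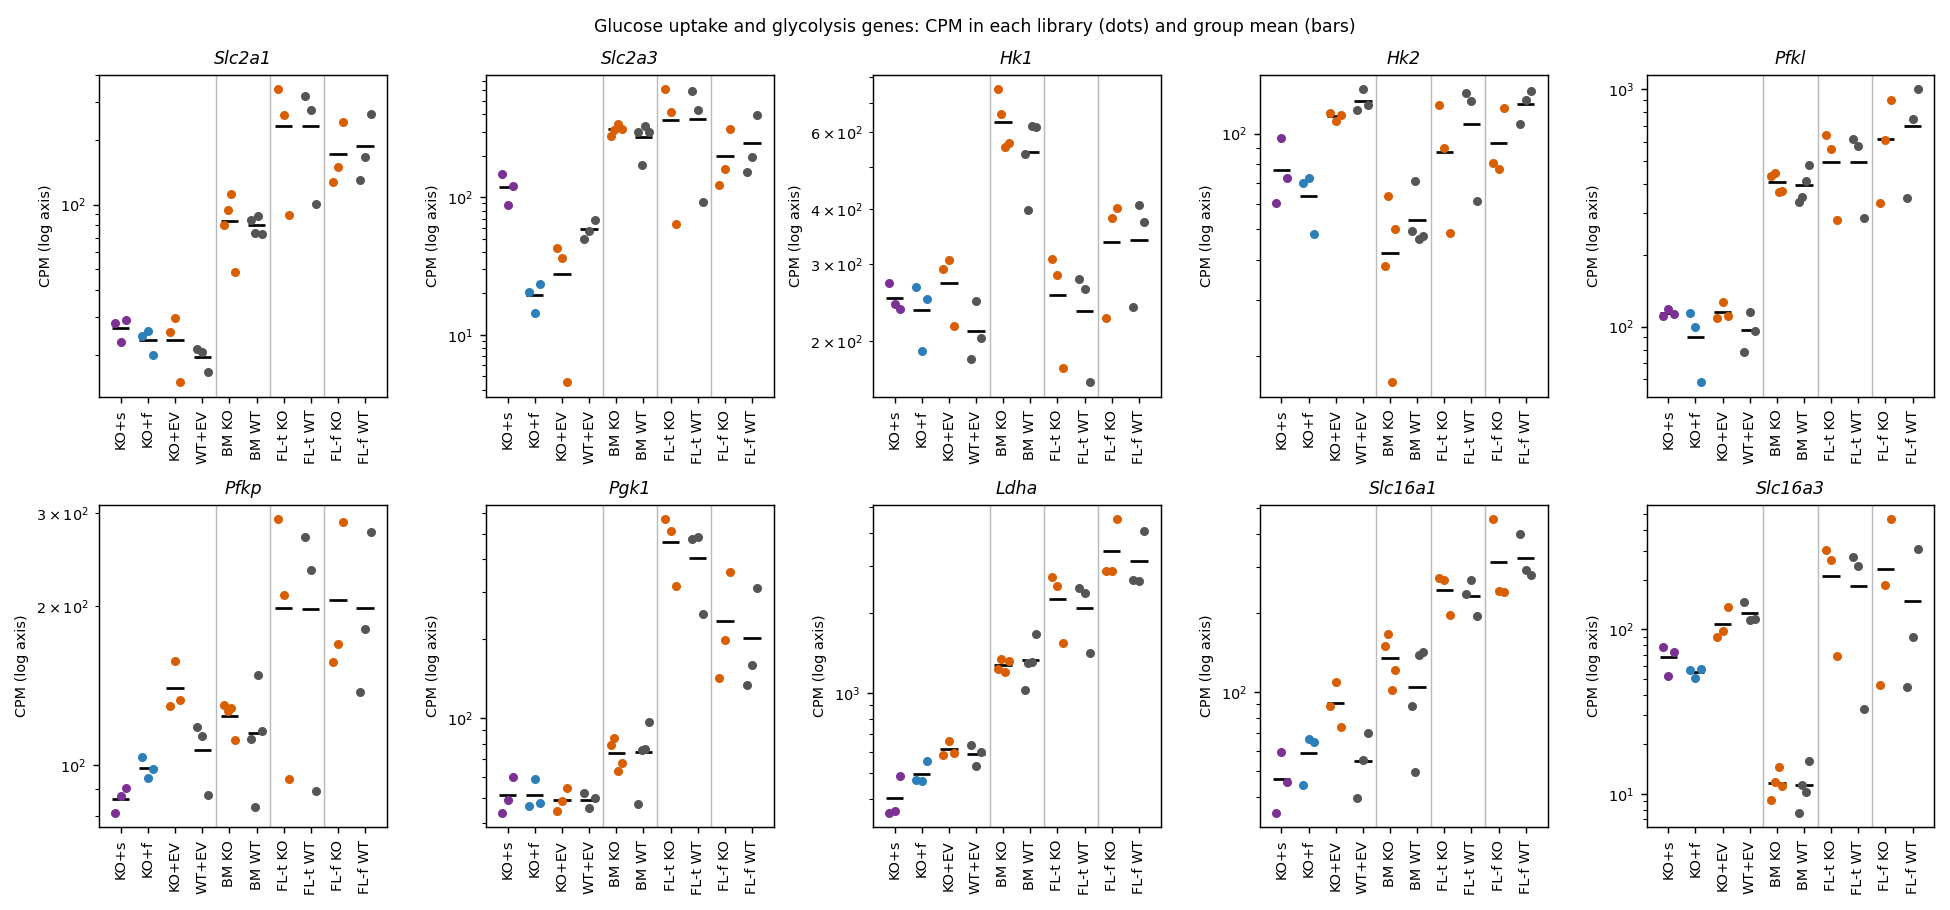
CPM of each of the 10 genes (log axis, one panel per gene) in every library (dots) with group means (bars). Labels give leukaemia KO+s, KO+f, KO+EV and WT+EV, then KO and WT of bone marrow (BM), total-knockout fetal liver (FL-t) and f-PRDM16-knockout fetal liver (FL-f); Slc16a3 is lowest in bone marrow, where all 8 libraries lie between 7.7 and 15.7 CPM, and fetal libraries of 1 group spread widely.

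Per kilobase of exon, Ldha was the highest of the 10 genes in all 10 groups, with mean levels of 212 CPM per kilobase in KO+s, 263 in KO+f, 324 in KO+EV and 312 in WT+EV. Its highest mean was 1805 CPM per kilobase, in the KO libraries of the f-PRDM16 knockout. Hk1, the hexokinase of most tissues, was above Hk2, the inducible form, in all 10 groups, and most so in bone marrow, at 131 against 7.52 CPM per kilobase in libraries labelled KO and 112 against 9.55 in WT. Slc16a3, which encodes the transporter known for lactate export from highly glycolytic cells, was the lowest of the 10 in bone marrow, with means of 2.62 CPM per kilobase in libraries labelled KO and 2.52 in WT. Slc2a1 was lowest in leukaemia cells, with no library over 29.6 CPM, against at least 48.4 CPM in every HSC library. For Slc2a1, Pfkl and Ldha every HSC library lay above every leukaemia library, and for Pgk1 every fetal library (133.8 CPM or more) lay above every bone marrow library (96.7 CPM or less). How many of all genes separate in these ways was not counted, and the tables differ in preparation. In the order of group means the fetal groups that stand next to each other overlapped for all 10 genes, and so did the KO and WT groups of bone marrow. Reads of Pgk1 (X-linked, 3 named pseudogenes) and Ldha (2) may be shared with those copies, so their levels are uncertain.

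What did s-PRDM16 add-back change? KO+s cells had more Slc2a3 and less Pfkp, Ldha, Slc16a1 and Slc16a3 RNA than KO+EV cells. In edgeR's quasi-likelihood test (adjusted over all 12958 genes tested, threshold 0.05) 1 of the 10 genes rose and 4 fell, where 15.9% of all genes rose and 16.6% fell. The median log2 change was -0.25 over the 10 genes and -0.01 over all genes tested. KO+f cells, set against the same KO+EV libraries, had less Hk2, Pfkp and Slc16a3: none rose and 3 fell, where 6.88% of all genes rose and 4.39% fell. The median log2 change was then -0.45 over the 10 genes and -0.01 over all genes. Without KO+EV replicate 3, 1 rose and 3 fell in KO+s, and 4 fell in KO+f, Slc2a3 being the added one. Of all genes 3821 were then called in KO+s and 932 in KO+f, against 4200 and 1461 with that library. Fewer cells of a type and less RNA per cell cannot be told apart in these bulk samples.

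**Figure D2:**
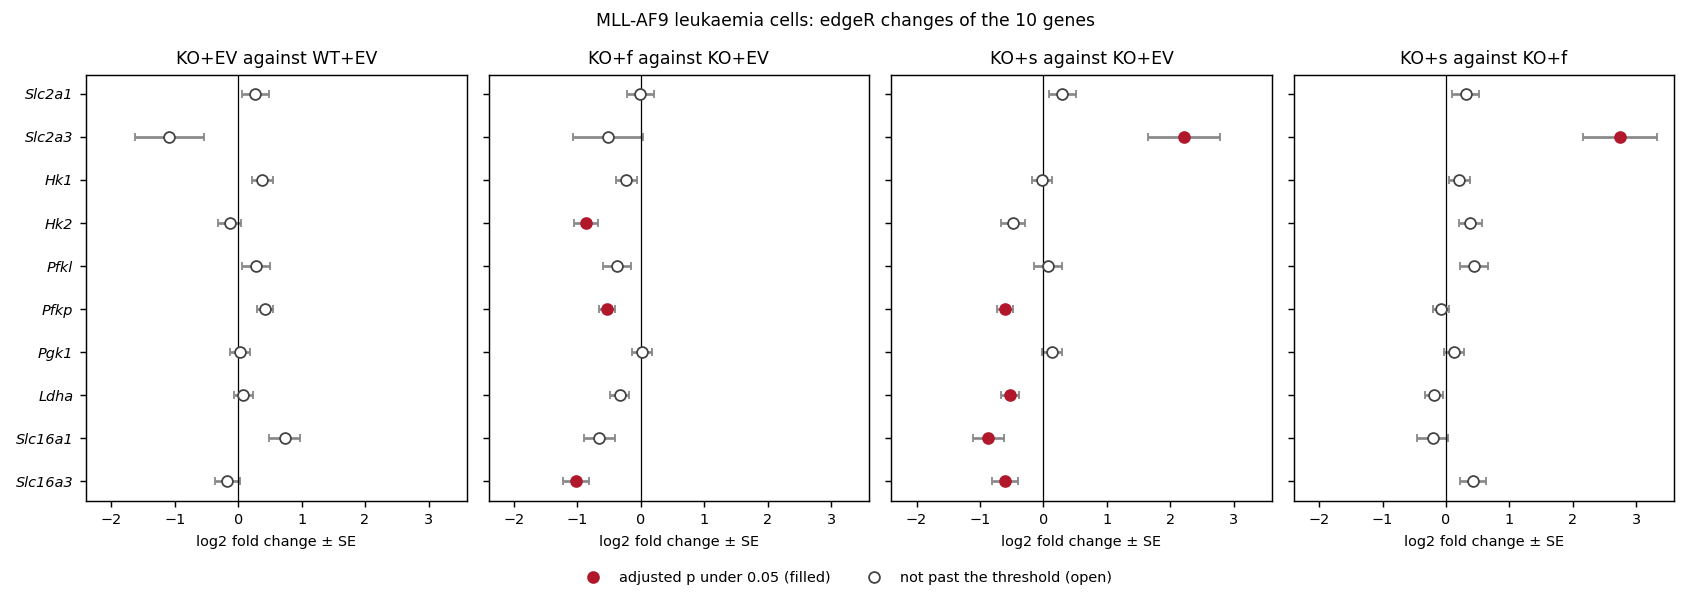
Log2 fold changes (horizontal axis, edgeR, bars are SE) of the 10 genes in 4 leukaemia comparisons. Filled points pass an adjusted p of 0.05: none for KO+EV against WT+EV, Hk2, Pfkp and Slc16a3 below 0 for KO+f against KO+EV, Slc2a3 above 0 and 4 genes below 0 for KO+s against KO+EV, and Slc2a3 alone for KO+s against KO+f.

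Of the glucose transporters, Slc2a3 passed in KO+s. It encodes GLUT3, a high-affinity glucose transporter. Slc2a3 had 147.2, 88.2 and 121.3 CPM in KO+s libraries, 20.3, 14.3 and 23.3 in KO+f libraries, 43.0, 36.2 and 4.5 in KO+EV libraries and 50.0, 56.7 and 68.6 in WT+EV libraries. The KO+s libraries were the 3 highest of the 12, and the KO+EV library with 4.5 CPM is replicate 3. The change from KO+EV was 2.22 ± 0.57 in KO+s (adjusted p = 0.0129) and -0.52 ± 0.55 in KO+f (adjusted p = 0.568). Without KO+EV replicate 3 both passed, at 1.72 ± 0.26 in KO+s (adjusted p = 0.00108) and -1.01 ± 0.25 in KO+f (adjusted p = 0.0337). With only KO+s and KO+EV in the fit the KO+s change missed the threshold (adjusted p = 0.0526). Slc2a1, which encodes the widely used transporter GLUT1, had 28.2, 22.9 and 29.1 CPM in KO+s libraries, 24.5, 25.8 and 19.8 in KO+f libraries, 25.6, 29.6 and 14.8 in KO+EV libraries and 21.2, 20.7 and 16.6 in WT+EV libraries. It did not pass edgeR's test over all leukaemia libraries in any comparison, but all KO+s libraries lay above the WT+EV libraries, and the change from WT+EV (0.57 ± 0.21, adjusted p = 0.0717) passed in DESeq2 (adjusted p = 0.0488) and with only those groups in the edgeR fit (adjusted p = 0.0373).

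Of the hexokinases, Hk2 was lower after add-back. Hk2 had 60.5, 96.7 and 72.7 CPM in KO+s libraries, 69.8, 72.7 and 48.2 in KO+f libraries, 115.8, 109.5 and 114.6 in KO+EV libraries and 118.4, 137.9 and 123.4 in WT+EV libraries. All 6 add-back libraries lay below all 6 EV libraries. The change from KO+EV was -0.86 ± 0.19 in KO+f (adjusted p = 0.0156) and -0.48 ± 0.19 in KO+s (adjusted p = 0.0662). Without KO+EV replicate 3 the KO+f change was -0.80 ± 0.20 (adjusted p = 0.0390). With only KO+f and KO+EV in the fit it missed the threshold (adjusted p = 0.0509), and without KO+s replicate 2 the KO+s change passed it (-0.65, adjusted p = 0.0232), as it did with library totals in place of TMM (-0.56, adjusted p = 0.0323) and in DESeq2 (adjusted p = 0.04995). Hk1 had 237.5 to 272.2 CPM in KO+s, 190.2 to 265.6 CPM in KO+f, 216.6 to 306.2 CPM in KO+EV and 182.4 to 246.5 CPM in WT+EV, and did not pass in any comparison.

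Phosphofructokinase is made of subunits named for liver (Pfkl), platelet (Pfkp) and muscle (Pfkm). Pfkp had 81.3, 87.4 and 90.5 CPM in KO+s libraries, 103.4, 94.7 and 98.1 in KO+f libraries, 129.6, 157.2 and 132.6 in KO+EV libraries and 118.3, 113.6 and 87.9 in WT+EV libraries. All 6 add-back libraries lay below the KO+EV libraries for Pfkp. The KO+s libraries lay below the KO+f libraries too, but on TMM-scaled CPM, the scaling of the test, they overlapped, with 85.8 to 96.6 in KO+s and 91.4 to 102.1 in KO+f. The change from KO+EV was -0.61 ± 0.12 in KO+s (adjusted p = 0.00390) and -0.53 ± 0.12 in KO+f (adjusted p = 0.0211). The KO+f call was lost without KO+EV replicate 2 (adjusted p = 0.0828), without KO+f replicate 2 (0.0821) and with only those groups in the fit (0.0584), and the KO+s call held in all 12 alternatives. Pfkl had 110.4, 118.2 and 112.6 CPM in KO+s libraries, 114.6, 99.3 and 58.2 in KO+f libraries, 108.3, 126.9 and 110.9 in KO+EV libraries and 78.4, 115.6 and 95.9 in WT+EV libraries, groups that overlap, and did not pass.

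Pgk1, whose product makes the first ATP of the pathway, had 43.9, 49.1 and 60.1 CPM in KO+s libraries, 46.6, 58.7 and 47.7 in KO+f libraries, 44.4, 48.6 and 54.4 in KO+EV libraries and 52.0, 45.6 and 50.1 in WT+EV libraries. The 4 groups overlap, and Pgk1 did not pass in any leukaemia comparison. Ldha, the subunit that favours lactate formation, had 355.3, 361.6 and 488.9 CPM in KO+s libraries, 471.3, 467.5 and 553.6 in KO+f libraries, 585.5, 662.6 and 595.5 in KO+EV libraries and 637.5, 534.4 and 602.1 in WT+EV libraries. All 6 add-back libraries lay below the KO+EV libraries. The change from KO+EV was -0.52 ± 0.14 in KO+s (adjusted p = 0.0170) and -0.34 ± 0.14 in KO+f (adjusted p = 0.149). The KO+s call was lost without KO+EV replicate 2 (adjusted p = 0.0557), KO+s replicate 1 (0.0765) or KO+s replicate 2 (0.0801), and held without KO+EV replicate 3 (-0.50 ± 0.16, adjusted p = 0.0362).

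Both lactate transporters were lower in KO+s. Slc16a1 encodes MCT1, which carries lactate in either direction. It had 34.9, 59.5 and 45.5 CPM in KO+s libraries, 44.5, 66.3 and 64.9 in KO+f libraries, 88.8, 109.1 and 74.0 in KO+EV libraries and 39.6, 55.3 and 69.8 in WT+EV libraries. The KO+EV libraries were the 3 highest of the 12. The change from KO+EV was -0.87 ± 0.25 in KO+s (adjusted p = 0.0192) and -0.66 ± 0.24 in KO+f (adjusted p = 0.103). The KO+s call was lost without KO+EV replicate 2 (adjusted p = 0.0702), KO+s replicate 1 (0.0834) or KO+s replicate 3 (0.0549), and held without KO+EV replicate 3 (-0.96 ± 0.27, adjusted p = 0.0197).

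Slc16a3 encodes MCT4. It had 78.2, 52.0 and 72.5 CPM in KO+s libraries, 56.7, 50.4 and 57.0 in KO+f libraries, 89.8, 98.2 and 136.0 in KO+EV libraries and 146.3, 113.9 and 115.4 in WT+EV libraries. All 6 add-back libraries lay below all 6 EV libraries. The change from KO+EV was -1.02 ± 0.21 in KO+f (adjusted p = 0.0114) and -0.60 ± 0.20 in KO+s (adjusted p = 0.0409). Without KO+EV replicate 3, which had the highest Slc16a3 of its group, the changes were -0.76 ± 0.17 in KO+f (adjusted p = 0.0258) and -0.35 ± 0.18 in KO+s (adjusted p = 0.162). The KO+f call was also lost without KO+f replicate 2 (adjusted p = 0.0529) and with only those groups in the fit (0.0516), and the KO+s call without KO+s replicate 2 (0.161) or replicate 3 (0.0640) and with only those groups (0.0948).

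Markers of other cell states moved with these groups. Calls here are against KO+EV. Of all genes 15.9% rose and 16.6% fell in KO+s, and 6.88% rose and 4.39% fell in KO+f. Summed monocyte and macrophage markers (8 genes) were 1753 to 2958 CPM in KO+s, 583 to 1013 CPM in KO+f, 357 to 459 CPM in KO+EV and 502 to 838 CPM in WT+EV, and 7 of 8 rose in KO+s and 4 of 8 in KO+f against KO+EV. Granulocyte markers (10 genes) summed to 19829 to 21993 CPM in KO+s, 8657 to 13224 CPM in KO+f, 7995 to 44477 CPM in KO+EV and 7132 to 14856 CPM in WT+EV, and 7 of 10 rose in KO+s and 1 in KO+f. Proliferation genes (9) summed to 2575 to 2911 CPM in KO+s, 2891 to 3438 CPM in KO+f, 4055 to 4463 CPM in KO+EV and 3632 to 4573 CPM in WT+EV, and 7 fell in KO+s and 2 in KO+f. HSC markers (10 genes, 7 tested) summed to 451 to 617 CPM in KO+s, 449 to 1007 CPM in KO+f, 265 to 389 CPM in KO+EV and 311 to 480 CPM in WT+EV, and 3 rose in KO+s and 2 in KO+f against KO+EV. This list holds Cd48, which HSCs were sorted to lack, so a higher sum need not mean an HSC-like state. Immediate early genes (8) summed to 1705 to 3398 CPM in KO+s, 692 to 2372 CPM in KO+f, 232 to 1230 CPM in KO+EV and 1494 to 4552 CPM in WT+EV, and 5 rose in KO+s and 2 in KO+f. Megakaryocyte genes (4, 3 tested) summed to 22.4 to 44.99 CPM in KO+s, 18.4 to 38.6 CPM in KO+f, 1.57 to 10.5 CPM in KO+EV and 3.28 to 4.83 CPM in WT+EV, and 3 rose in KO+s and 1 in KO+f. Leukaemia programme genes (4) summed to 448 to 556 CPM in KO+s, 579 to 832 CPM in KO+f, 394 to 1005 CPM in KO+EV and 691 to 753 CPM in WT+EV. Of these 1 fell in KO+s and 0 in KO+f. Erythroid, hepatocyte and lymphoid lists, each at 22.2 CPM or less in leukaemia libraries, had at most 1 gene called in either add-back group. The part of these markers in the changes of the 10 genes was not tested.

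Did the 2 isoforms differ? For Slc2a3 they did in edgeR's test over all leukaemia libraries: it was 2.74 ± 0.58 higher in KO+s than in KO+f on the log2 scale (adjusted p = 0.0312), the only one of the 10 genes to pass, where 2.05% of all genes rose and 1.76% fell. The mean was 119 ± 29.6 CPM in KO+s, against 19.3 ± 4.55 CPM in KO+f (SD, n = 3 each), a ratio of 6.16, and the groups do not overlap. The call was lost without filtering low counts (adjusted p = 0.0784) and without KO+s replicate 1 (0.115), KO+s replicate 3 (0.101) or any one KO+f library (0.0667 to 0.101), and with the replicate number as a block (0.0547), while the log2 difference stayed between 2.55 and 2.93. Pfkp differed by -0.08 ± 0.12 (adjusted p = 0.756). Hk2 differed by 0.38 ± 0.19 (adjusted p = 0.245), Slc16a3 by 0.42 ± 0.20 (0.243), Slc16a1 by -0.21 ± 0.24 (0.651) and Ldha by -0.19 ± 0.14 (0.470), none of which passed.

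What did loss of PRDM16 change before add-back? None of the 10 genes passed for KO+EV against WT+EV in edgeR, where 0.903% of all genes rose and 1.20% fell, and 3 did at an unadjusted p under 0.05, as did 18.1% of all genes. These were Pfkp (0.42 ± 0.12, adjusted p = 0.102), Slc16a1 (0.74 ± 0.25, adjusted p = 0.141) and Hk1 (0.38 ± 0.16, adjusted p = 0.245), all with higher means in KO+EV. DESeq2 called 1 of the 10, Pfkp (adjusted p = 0.0382). Slc2a3 averaged 27.9 ± 20.5 CPM in KO+EV and 58.4 ± 9.40 CPM in WT+EV (SD, n = 3 each), a change of -1.08 ± 0.55 (adjusted p = 0.334).

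Against WT+EV, which never lost PRDM16, Hk2 and Slc16a3 were lower in both add-back groups. For KO+f against WT+EV 2 of the 10 fell and none rose, where 3.86% of all genes fell and 6.11% rose: Hk2 (-0.998 ± 0.187, adjusted p = 0.00859) and Slc16a3 (-1.19 ± 0.21, adjusted p = 0.00560). Both calls held in all 12 alternatives, the leave-one-out fits included. Slc2a3 missed the threshold there, though every KO+f library (14.3 to 23.3 CPM) lay below every WT+EV library (50.0 to 68.6 CPM). With only KO+f and WT+EV in the fit Slc2a3 passed as lower in KO+f (-1.59 ± 0.22, adjusted p = 0.00574). That fit called 3 of the 10 and 1054 of all genes. For KO+s against WT+EV 3 fell and none rose, where 11.9% of all genes fell and 11.8% rose: Hk2 (-0.61 ± 0.19, adjusted p = 0.0326), Ldha (-0.44 ± 0.14, adjusted p = 0.0452) and Slc16a3 (-0.77 ± 0.20, adjusted p = 0.0184). The Hk2 call was lost without WT+EV replicates 2 or 3 (adjusted p = 0.0981 and 0.0592) or KO+s replicates 1 or 3 (0.124 and 0.0825). The Ldha call was lost without any one WT+EV library (adjusted p = 0.133, 0.0539 and 0.115 without replicates 1, 2 and 3) without KO+s replicates 1 or 2 (0.163 each), without the filter (0.0644) and with only those groups in the fit (0.0728), and the Slc16a3 call without WT+EV replicate 1 (0.0736) or KO+s replicate 2 (0.0695). With only those groups in the fit 2 of the 10 rose in KO+s against WT+EV, Slc2a3 (1.13 ± 0.21, adjusted p = 0.00461) and Slc2a1. In all, that fit called 4 of the 10 and 3269 of all genes. Slc16a1, which fell in KO+s against KO+EV, averaged 46.6 ± 12.4 CPM in KO+s, 58.5 ± 12.2 CPM in KO+f and 54.9 ± 15.1 CPM in WT+EV (SD, n = 3 each), and Pfkp 86.4 ± 4.67 CPM in KO+s, 98.7 ± 4.40 CPM in KO+f and 106.6 ± 16.3 CPM in WT+EV, and neither passed against WT+EV.

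The balance between paired isozymes and transporters, as a ratio of CPM within a library, separated some groups. The Slc2a3 to Slc2a1 ratio was 3.84 to 5.22 in KO+s, 0.555 to 1.17 in KO+f, 0.304 to 1.68 in KO+EV and 2.36 to 4.13 in WT+EV. The Hk2 to Hk1 ratio was 0.222 to 0.398 in KO+s, 0.193 to 0.382 in KO+f, 0.358 to 0.529 in KO+EV and 0.560 to 0.649 in WT+EV, so that every WT+EV library lay above every knockout library. The Pfkp to Pfkl ratio was 0.736 to 0.803 in KO+s, 0.902 to 1.69 in KO+f, 1.20 to 1.24 in KO+EV and 0.917 to 1.51 in WT+EV. The Slc16a3 to Slc16a1 ratio was 0.874 to 2.24 in KO+s, 0.761 to 1.27 in KO+f, 0.900 to 1.84 in KO+EV and 1.65 to 3.70 in WT+EV.

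**Figure D3:**
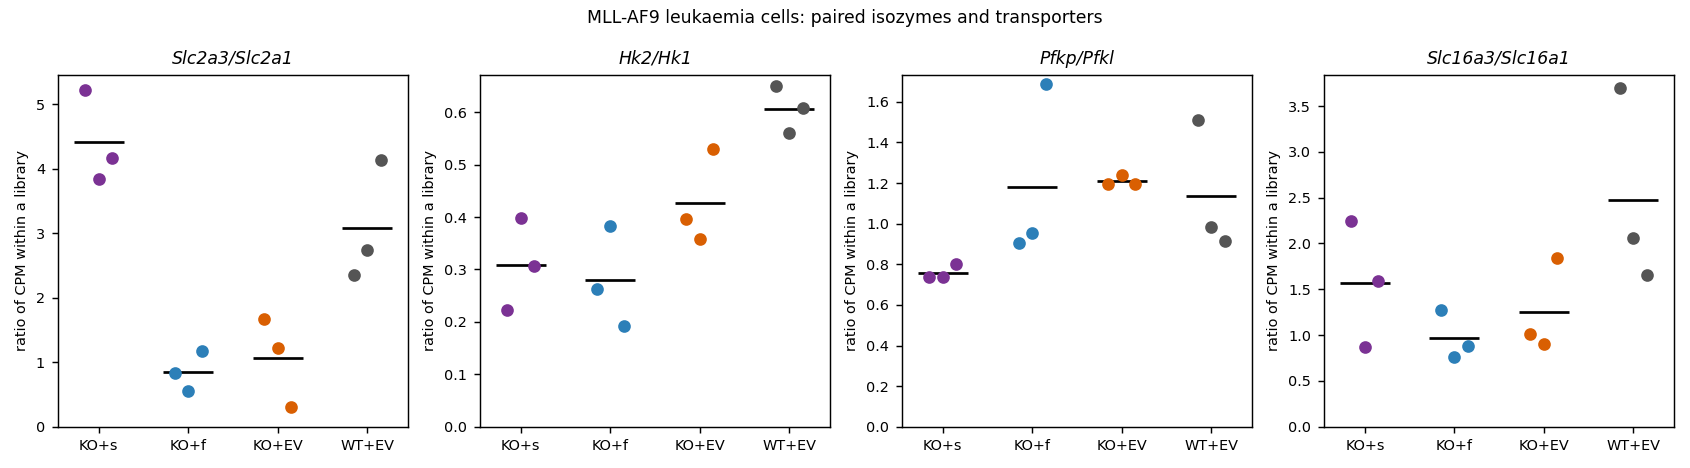
Ratio of CPM of paired genes within each leukaemia library (vertical axis, no unit; dots are libraries, bars are group means). KO+s libraries lie at 3.84 or more for Slc2a3 over Slc2a1 and at 0.803 or less for Pfkp over Pfkl, and WT+EV libraries lie at 0.560 or more for Hk2 over Hk1.

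Other genes of glucose use were read from 8 lists with 94 genes, of which 74 were tested in leukaemia. For KO+s against KO+EV 11 rose and 12 fell, where 15.9% of all genes rose and 16.6% fell, and for KO+f against KO+EV 5 rose and 4 fell, where 6.88% rose and 4.39% fell, so that the lists were near the background. Among glycolytic enzymes, Ldhb, the other lactate dehydrogenase subunit, rose in KO+s (4.31 ± 1.07, adjusted p = 0.0110) to a mean of 27.5 CPM, against 1.41 CPM in KO+EV. Aldoc, an aldolase, fell in KO+s (-1.65 ± 0.32, adjusted p = 0.00296), as did Pfkm (-0.87 ± 0.23, adjusted p = 0.0141), and Hk3, the hexokinase known from myeloid cells, rose (0.59 ± 0.19, adjusted p = 0.0308). Aldoa, the main aldolase, fell in KO+f (-0.53 ± 0.14, adjusted p = 0.0312).

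In the fructose bisphosphate switch, which sets the flow through phosphofructokinase, Tigar and Fbp1 passed in both add-back groups, which were set against the same KO+EV libraries. Tigar, a fructose bisphosphatase that slows glycolysis, had mean levels of 20.7 CPM in KO+s libraries, 30.2 in KO+f libraries, 54.0 in KO+EV libraries and 56.1 in WT+EV libraries. Its change from KO+EV was -1.30 ± 0.12 in KO+s (adjusted p = 9.26e-05) and -0.87 ± 0.12 in KO+f (adjusted p = 0.00236). Fbp1, the fructose bisphosphatase of gluconeogenesis, had 64.5 CPM in KO+s libraries, 65.8 in KO+f libraries, 23.9 in KO+EV libraries and 23.8 in WT+EV libraries, and its change from KO+EV was 1.52 ± 0.29 in KO+s (adjusted p = 0.00307) and 1.44 ± 0.29 in KO+f (adjusted p = 0.0127).

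Among other transporters and the entry of pyruvate into mitochondria, Slc16a10, an aromatic amino acid transporter of the SLC16 family, fell in KO+s (-1.02 ± 0.14, adjusted p = 0.000625) and KO+f (-0.82 ± 0.14, adjusted p = 0.00628). Emb, the chaperone embigin of monocarboxylate transporters, fell in KO+s (-1.04 ± 0.19, adjusted p = 0.00221) and was lower in KO+s than in KO+f (-0.97 ± 0.19, adjusted p = 0.0213). Dlat, a subunit of pyruvate dehydrogenase, fell in KO+s (-0.77 ± 0.15, adjusted p = 0.00287) and KO+f (-0.60 ± 0.15, adjusted p = 0.0254), and Pdhb and Pdhx of the same complex fell in KO+s (-0.40 ± 0.11 and -0.45 ± 0.14, adjusted p = 0.0184 and 0.0251). Pdp1 of the pyruvate entry list rose in KO+s (0.72 ± 0.23, adjusted p = 0.0292). Of the 12 genes of that list tested, 2 rose and 4 fell in KO+s, where 15.9% of all genes rose and 16.6% fell. G6pdx, which opens the pentose phosphate pathway, rose in KO+s (1.07 ± 0.21, adjusted p = 0.00324) and was higher in KO+s than in KO+f (1.13 ± 0.21, adjusted p = 0.0181). Slc2a6 fell in KO+s (-1.65 ± 0.37, adjusted p = 0.00591), and the fructose transporter Slc2a5 rose in KO+f (1.74 ± 0.47, adjusted p = 0.0358) at a mean of 3.38 CPM, against 0.998 CPM in KO+EV.

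Of the regulators, Hif1a, which encodes the inducible subunit of HIF-1, rose in KO+EV against WT+EV (0.75 ± 0.15, adjusted p = 0.0307), the only one of the 74 genes to pass there. Txnip, which restrains glucose uptake, rose in KO+s against KO+EV (1.27 ± 0.26, adjusted p = 0.00436), and Egln1, a prolyl hydroxylase that marks HIF for removal, fell (-1.06 ± 0.26, adjusted p = 0.00932). Vhl rose there too (0.56 ± 0.17, adjusted p = 0.0260), and Epas1 fell (-1.24 ± 0.42, adjusted p = 0.0413). In all, 2 of the 13 regulators tested rose and 2 fell in KO+s. Among 13 hypoxia response genes outside the 10, 11 were tested and none fell in either add-back group. In KO+s 2 of them rose, where 15.9% of all genes rose and 16.6% fell. In KO+f 3 rose, where 6.88% of all genes rose and 4.39% fell. Ndrg1, a stress response gene, rose by 2.38 ± 0.27 in KO+s (adjusted p = 0.000205) and 1.11 ± 0.26 in KO+f (adjusted p = 0.0223), and Mxi1, a MYC antagonist, by 1.14 ± 0.13 (adjusted p = 0.000209) and 0.51 ± 0.13 (adjusted p = 0.0278). The summed level of the 13 genes was 868 to 887 CPM in KO+s, 567 to 662 CPM in KO+f, 491 to 517 CPM in KO+EV and 464 to 610 CPM in WT+EV, with no overlap between KO+s and the other groups.

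The genes whose pattern was most like each changed gene over the 12 leukaemia libraries, by Pearson's r on log2 CPM, were as follows, as a description of libraries that share groups. For Slc2a3 they were Ehd1 (0.948), Agap1 (0.946) and Ptges (0.931). For Hk2 they were Tmtc4 (0.958), Donson (0.942) and Gfm2 (0.941), and for Pfkp Gja5 (0.956), Aldh1b1 (0.944) and Ube2m (0.932). For Ldha they were Atp5k (0.961), Slc17a3 (0.956) and Ndufb9 (0.948). For Slc16a1 they were Dpy19l1 (0.882), Stx1a (0.874) and Akr7a5 (0.874), and for Slc16a3 Haus8 (0.967), Lpcat2 (0.942) and Prosapip1 (0.938). Among the 10 genes themselves the highest r was 0.732, between Hk2 and Slc16a3, and the lowest -0.486, between Slc2a3 and Pfkp.

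In adult bone marrow HSCs none of the 10 genes differed between libraries labelled KO and WT in edgeR, and every gene's groups overlapped. Log2 changes ran from -0.34 (Hk2) to 0.36 (Slc16a1), with the lowest adjusted p at 0.706. No gene of 13495 tested was called (0% called), 8.45% had an unadjusted p under 0.05 and none of the 10 was among them, and DESeq2 called 62 genes and none of the 10. Slc2a3 had 280.6, 309.8, 338.0 and 314.5 CPM in libraries labelled KO and 298.0, 170.2, 329.5 and 295.9 CPM in WT. Ldha had 1230.9, 1343.1, 1203.1 and 1321.1 CPM in libraries labelled KO and 1028.5, 1298.4, 1315.8 and 1675.3 CPM in WT. Hk1 had 752.1, 660.8, 555.4 and 566.8 CPM in libraries labelled KO and 533.9, 398.1, 618.6 and 615.9 CPM in WT, and its antisense row Hk1os had 2.43 to 3.55 CPM and 4.38 to 8.28 CPM; the strand of the counts is not given, so their reads cannot be told apart. Slc16a3 had 9.2, 11.8, 14.5 and 11.2 CPM in libraries labelled KO and 7.7, 11.3, 10.2 and 15.7 CPM in WT.

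In fetal liver HSCs none of the 10 genes passed in either knockout, and for most genes the spread between replicate numbers was wider than that between genotypes. In the total knockout the libraries numbered 3 were the lowest of both genotypes for 10 of the 10 genes, and those numbered 1 the highest of both for 8. The 10 genes moved together over these 6 libraries (Pearson's r from 0.79 to 0.9994), so such counts are not independent. How many of all genes follow the numbers was not counted in either fetal table. Slc16a3 had 303.1, 262.7 and 68.3 CPM in KO and 273.9, 242.4 and 32.8 CPM in WT for numbers 1, 2 and 3. Slc2a3 had 609.5, 415.1 and 64.0 CPM in KO and 592.0, 433.6 and 91.8 CPM in WT. In the f-PRDM16 knockout the libraries numbered 3 were instead the highest of both genotypes for 8 of the 10 genes. There Slc16a3 had 45.5, 185.5 and 464.3 CPM in KO and 44.5, 90.0 and 309.3 CPM in WT, 10.2-fold between the highest and lowest KO libraries. Slc16a1 ran the other way, with 453.6, 242.7 and 240.4 CPM in KO and 399.6, 290.6 and 278.5 CPM in WT. The difference between numbers was larger than the largest difference between KO and WT of 1 number for 10 of 10 genes in the total knockout and 9 of 10 in the f-PRDM16 knockout, where Hk2 was the exception. The share of all genes with such a spread was not counted.

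**Figure D4:**
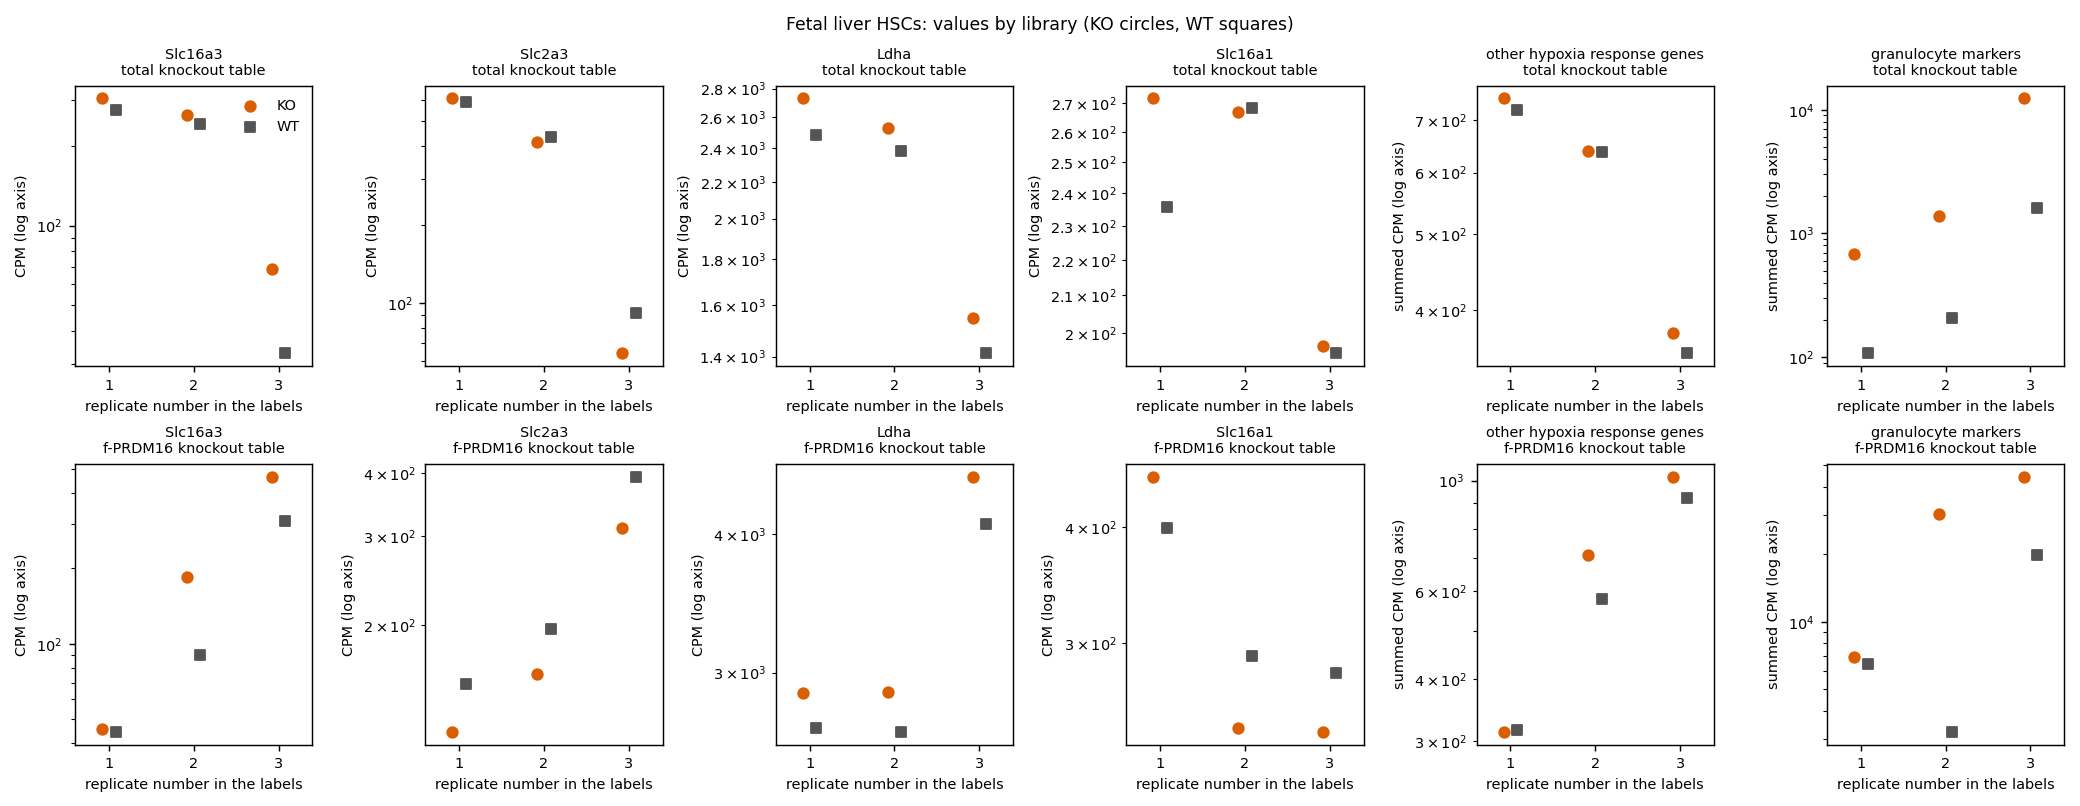
CPM of Slc16a3, Slc2a3, Ldha and Slc16a1, and summed CPM of 13 other hypoxia response genes and 10 granulocyte markers (log axes), by replicate number in the total knockout (top) and f-PRDM16 knockout (bottom), KO as circles and WT as squares. KO and WT of 1 number lie close together for most glycolysis genes, which are lowest at number 3 in the top row and, except for Slc16a1, highest at number 3 in the bottom row.

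Other lists moved with the numbers too. The 13 hypoxia response genes summed to 746, 639 and 374 CPM in KO and 721, 637 and 352 CPM in WT of the total knockout, and to 313, 710 and 1018 CPM in KO and 317, 579 and 924 CPM in WT of the f-PRDM16 knockout. Granulocyte markers summed to 682, 1387 and 12348 CPM in KO and 107, 209 and 1613 CPM in WT of the total knockout, highest at number 3 where the glycolysis genes were lowest. In the f-PRDM16 knockout they summed to 6984, 30169 and 44344 CPM in KO and 6496, 3229 and 19893 CPM in WT. Hepatocyte markers in the total knockout were 207, 68.4 and 9.7 CPM in KO and 187, 125 and 11.96 CPM in WT. Their part in the levels of the 10 genes was not tested.

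Within a number, some genes kept a side in both knockouts. How many of all genes did so was not counted, and the labels give no pairing of the numbers. Hk2 was lower in KO than in WT in all 6 pairs: 123.0, 89.9 and 48.8 CPM in KO and 134.3, 126.6 and 61.5 CPM in WT of the total knockout, and 81.0, 77.5 and 120.7 CPM in KO and 107.5, 127.8 and 135.8 CPM in WT of the f-PRDM16 knockout. Pgk1, Ldha and Slc16a3 were higher in KO in all 6 pairs. Pgk1 had 565.5, 509.9 and 316.4 CPM in KO and 475.0, 484.3 and 248.3 CPM in WT of the total knockout, and 141.4, 198.6 and 358.7 CPM in KO and 133.8, 159.1 and 312.5 CPM in WT of the f-PRDM16 knockout. Ldha had 2729.7, 2530.1 and 1545.3 CPM in KO and 2486.1, 2379.8 and 1411.0 CPM in WT of the total knockout, and 2877.6, 2879.6 and 4503.7 CPM in KO and 2674.0, 2653.6 and 4085.1 CPM in WT of the f-PRDM16 knockout. With the number as a block in edgeR, Hk2 changed by -0.28 ± 0.09 (adjusted p = 0.189) in the total knockout and -0.34 ± 0.13 (adjusted p = 0.369) in the f-PRDM16 knockout, so that neither passed. Pgk1 changed by 0.26 ± 0.08 (adjusted p = 0.172) and 0.29 ± 0.09 (adjusted p = 0.327), Ldha by 0.16 ± 0.05 (adjusted p = 0.211) and 0.21 ± 0.08 (adjusted p = 0.369), and Slc16a3 by 0.46 ± 0.26 (adjusted p = 0.539) and 0.65 ± 0.21 (adjusted p = 0.337).

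Over all genes the fetal tests called few. In the total knockout no gene passed without the block (0% called, 4.75% at an unadjusted p under 0.05) and 1.13% did with it (14.4% unadjusted), and none of the 10 passed in either, with 0 and 4 of them at an unadjusted p under 0.05. DESeq2 called 71 genes there and none of the 10. In the f-PRDM16 knockout no gene passed in edgeR with or without the block, 2.62% had an unadjusted p under 0.05 without it and 12.6% with it, and 0 and 5 of the 10 did, while DESeq2 called 1 gene and none of the 10. The KO effect of the total knockout minus that of bone marrow did not pass for any of the 10 in edgeR (log2 differences from -0.29 to 0.23, lowest adjusted p = 0.899, 0.00627% of all genes called and 7.95% at an unadjusted p under 0.05). Nor did the effect of the f-PRDM16 knockout minus that of the total knockout (-0.21 to 0.51, lowest adjusted p = 1.00, 0% called and 2.12% unadjusted), with none of the 10 at an unadjusted p under 0.05 in either and none called by DESeq2. Of the 94 other genes none passed in bone marrow or in the unblocked fetal tests. With the block, Max, the partner of MYC, was the only one to pass in the total knockout (0.70, adjusted p = 0.0146).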

How the data were processed

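Whole-number read counts were deposited in 4 tables: leukaemia with 23284 rows, bone marrow HSCs with 24043, the fetal total knockout with 22803 and the fetal f-PRDM16 knockout with 24047, covering 32 mouse libraries. Per the submitters' processing notes bcl2fastq 2.17 made the reads, TopHat placed them on build mm9, and DESeq is named; the counting tool, annotation and strand are not given in the sources used here. Per the labels' protocols all libraries were poly-A TruSeq, and HSC libraries were first amplified with a SMARTer low-input kit. Spike-in rows (92 in each of 2 tables, 1 count in all) and 26 names turned into dates in the total-knockout table (0.154% of its counts) were left out. None of 124 library pairs within a table agreed within sampling noise (lowest chi-square per degree of freedom 12.2).

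CPM here are counts scaled to a library total of 1000000. One edgeR 4.0.16 fit (R 4.3.3) held the 12 leukaemia libraries, and the HSC tables had a fit each. Low genes were removed by filterByExpr and libraries scaled by TMM; the two-sided test was edgeR's quasi-likelihood F test in its robust form. P-values were adjusted by Benjamini-Hochberg over all genes tested, with a threshold of 0.05. It gives every adjusted p not credited to DESeq2 1.42.0. Genes tested were 12958 in leukaemia, 13495 in bone marrow, 15565 in the total knockout and 13631 in the f-PRDM16 knockout, and all 10 members passed the filter in each. Errors after ± are SE for log2 changes and SD for CPM. Differences between KO effects were interactions in joint fits. Alternatives were other size factors, library totals, no filter, DESeq2, leaving out each library, the replicate number as a block, the compared groups alone and symbols shared by all tables. The scripts were tested on simulated counts. Per kilobase levels used union exon lengths from GENCODE M21 (GRCm38).

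Labels give replicate numbers but no pairing. Deviations of same-number libraries correlated at 0.42, 0.20 and 0.63 in the total knockout and 0.62, 0.35 and 0.52 in the f-PRDM16 knockout, all over 0.1, so fetal results are also given with the block. Some libraries of unlike number correlated too. In the total knockout KO 1 with WT 2 gave 0.34 and KO 2 with WT 1 gave 0.32. In the f-PRDM16 knockout KO 2 with WT 3 gave 0.14. The correlations thus do not show that a number marks a pair.

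The 10 genes and the pathway and marker lists were chosen with earlier results of these data known. Named are the 10 genes, up to 4 passing genes per pathway list and comparison with the smallest p (some shown by count only), and the 3 genes most alike each changed gene.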

Additional observations from a re-analysis of the deposited data

Results flagged for a closer look

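In 2 bone marrow groups 1 library stood apart from the other 3, by a gap-to-range criterion that chance alone meets in about 1 of 20 groups. Pfkp was 111 CPM in replicate 4 labelled KO, against 126.7 to 129.8 CPM in the other libraries labelled KO. Hk2 was 71.0 CPM in WT replicate 2, against 46.5 to 49.3 CPM in the other WT libraries. Neither gene passed the test in bone marrow.

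The effects of the 2 PRDM16 isoforms differed for Slc2a3, by 2.74 ± 0.58 on the log2 scale for s-PRDM16 minus f-PRDM16 (edgeR adjusted p = 0.0312), higher in 3 of 3 KO+s libraries than in every KO+f library. That call was lost in 7 of 12 alternatives, the replicate block among them (adjusted p = 0.0547), with log2 differences of 2.55 to 2.93 and adjusted p from 0.00059 to 0.115.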

How the results depend on the processing

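Of 49 log2 changes of the 10 genes followed through the alternatives, 37 alternative values lost a call, 11 gained one and 14 turned. Hk2 and Slc16a3 in KO+f against WT+EV and Pfkp in KO+s against KO+EV held in all 12 alternatives. The number of the 10 genes called with KO+s set against KO+f was 0 with no filter and 0 with the replicate block, for KO+EV against WT+EV 1 with DESeq2, for KO+f against KO+EV 0 and for KO+s against KO+EV 3 with the compared groups alone, and for the f-PRDM16 knockout 1 with the replicate block without both libraries numbered 1 (Slc16a3, 0.94 ± 0.14, adjusted p = 0.0494). Leaving out 1 library gave 1 to 2 genes for KO+s against WT+EV, 3 to 5 for KO+s against KO+EV, 1 to 4 for KO+f against KO+EV and 0 to 1 between the isoforms. In the same order these fits called 1765 to 2467, 2732 to 3821, 559 to 1533 and 37 to 388 of all genes. The main fit called 3072, 4200, 1461 and 494. Between the isoforms 393 of all genes were called with no filter and 372 with the replicate block. The f-PRDM16 knockout fit that called Slc16a3 called 236. Counts over all genes were 272 in edgeR and 907 in DESeq2 for KO+EV against WT+EV, 1461 and 2267 for KO+f against KO+EV, 494 and 1406 between the isoforms, and 1292 and 2069 for KO+f against WT+EV. With the compared groups alone they were 1 for KO+EV against WT+EV and 392 for KO+f against KO+EV. The cause of these differences was not tested.

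Leaving out 1 library turned some uncalled changes. In the total knockout the log2 change then ran from -0.057 to 0.36 for Hk1, -0.59 to 0.0089 for Hk2, -0.025 to 0.44 for Pgk1, -0.078 to 0.35 for Ldha and -0.27 to 0.65 for Slc16a3. In the f-PRDM16 knockout it ran from -0.73 to 0.28 for Slc2a3, -0.17 to 0.77 for Pgk1, -0.049 to 0.45 for Ldha and -0.29 to 1.90 for Slc16a3. Slc16a1 ran from -0.11 to 0.31 for KO+f against WT+EV and from -0.32 to 0.097 for KO+s against WT+EV. Each of these fits leaves replicate numbers unbalanced.

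In leukaemia the replicate numbers share only a number: of 18 same-number pairs 3 correlated over 0.1 (-0.182 to 0.289). With the replicate block the Slc2a3 difference of KO+s from KO+f was 2.72 ± 0.62 (adjusted p = 0.0547), and Slc16a1 passed for KO+f against KO+EV (-0.68 ± 0.18, adjusted p = 0.0372). The block changed no other call of the 10 genes, in bone marrow included. Depth limits the lowest levels most, and the 10 genes ran from 4.5 to 4504 CPM.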
